A study of Mus musculus with 24 samples.

Results

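The 10 hypothalamic neuropeptide genes Oxt, Avp, Hcrt, Pmch, Trh, Agrp, Pomc, Gal, Cartpt and Crh were followed through mouse brains that lacked single phenylalanine tRNA genes. They were found by matching the Ensembl identifiers of the brain table to these symbols, and all 10 matched among 55469 listed genes. The brains came from C57BL/6N male mice, 10 weeks old and matched for age and litter, of 4 genotypes with 3 brains each (A, B and C): wild type (WT) and the knockouts tRNA-Phe-1-1-/-, then tRNA-Phe-2-1-/-, then tRNA-Phe-3-1-/-. Each knockout was homozygous for a CRISPR-Cas9 deletion of 1 tRNA gene that stands for 1 isodecoder, a tRNA body sequence that shares its anticodon with the rest of the family, and no other allele or agent was given. The labels describe homogenised pieces of tissue and the methods total brain RNA, and no source used here says which part of the brain a piece came from. The deleted tRNA genes themselves were not analysed here. Libraries held 30365760 to 46225360 recovered reads in brain, and the values below are the deposited normalised counts unless another scale is named.

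The hypothalamus controls pituitary hormones, water balance, feeding, sleep and stress through small groups of neurons, each making a peptide cut from a longer precursor. Oxytocin and vasopressin leave through the posterior pituitary, thyrotropin-releasing and corticotropin-releasing hormone act on the anterior pituitary, and orexin, melanin-concentrating hormone, agouti-related peptide and the melanocortins act on feeding and arousal circuits. Several of these genes are also transcribed outside the hypothalamus: Crh in cerebral cortex, for example, and Cartpt in several other brain regions. In bulk tissue, fewer cells of a type and less RNA per cell cannot be told apart.

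One brain stood apart before any comparison of genotypes. tRNA-Phe-3-1-/- replicate C had the highest value of 7 of the 10 genes and 54.7% of their normalised counts summed over the 12 brains, against 7.31% for the next brain, tRNA-Phe-3-1-/- replicate A. It was the highest brain for 15.9% of the 19228 genes tested, compared with 5.07% to 9.64% for each of the other brains. Its score for 14 transcription factors of the developing and adult hypothalamus (mean log2 deviation from the average brain) was 2.91, against a median of -0.24, and the other 11 brains lay between -1.19 and 0.53. The summed counts of that list ranged from 53.9 to 518 in WT, 28.6 to 364 in tRNA-Phe-1-1-/-, 125 to 746 in tRNA-Phe-2-1-/- and 75.9 to 1313 in tRNA-Phe-3-1-/-. Of its 14 genes, 4, 8 and 2 had no read in WT replicates A, B and C, and 9, 7 and 5 in those of tRNA-Phe-1-1-/-. In tRNA-Phe-2-1-/- these numbers were 6, 8 and 1, and in tRNA-Phe-3-1-/- 6, 6 and 1. Hypothalamic markers were thus weak or absent in some brains of every genotype, while other brains missed few of them. tRNA-Phe-3-1-/- replicate C was also apart, by more than 3 scaled median absolute deviations, for midbrain dopamine neuron markers (2.90), thalamic markers (2.18), cerebral cortex markers (-1.25) and the general brain markers (-0.32). Its scores for cerebellum (3.45) and choroid plexus (3.21) were higher than that for the hypothalamus list. Those 2 lists varied so widely between brains that neither score passed this limit. WT replicate A and tRNA-Phe-2-1-/- replicate C were apart for the thalamic markers (1.03 and 2.65), and tRNA-Phe-1-1-/- replicate A and tRNA-Phe-3-1-/- replicate B for olfactory bulb markers (3.69 and 3.66). Results that rest on tRNA-Phe-3-1-/- replicate C are given with and without it.

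**Figure D1:**
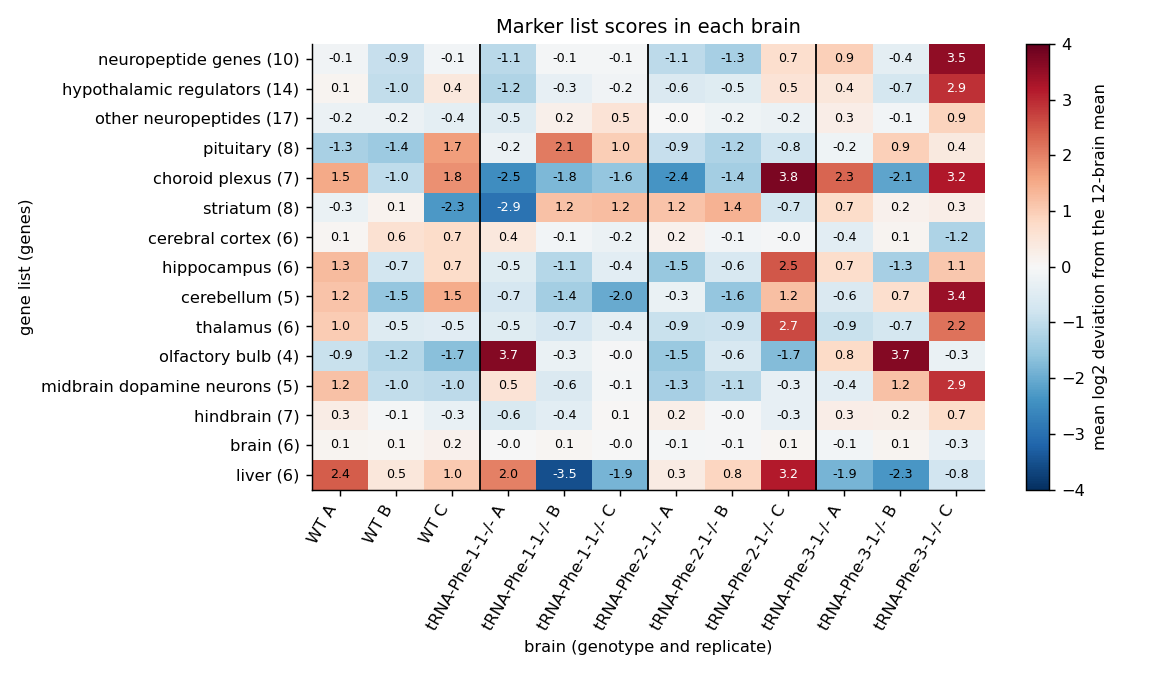
Score of each marker list (rows) in each of the 12 brains (columns), as the mean log2 deviation of its genes from the average brain. tRNA-Phe-3-1-/- replicate C has 2.91 for the hypothalamic regulators and -1.25 for the cerebral cortex list, while olfactory bulb markers stand out in tRNA-Phe-1-1-/- replicate A (3.69) and tRNA-Phe-3-1-/- replicate B (3.66).

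Per length, the genes covered a wide range of levels. Over the 12 brains, the median was 5.09 RPKM (reads scaled by transcript length and library size) for Cartpt (2.34 to 19.3), 2.67 for Trh (0.860 to 14.7), 2.54 for Crh (1.77 to 4.79) and 1.65 for Pomc (0.792 to 4.73). The ranges of these genes overlapped, so their order is that of the medians only. Lower medians were found for Avp (0.738, from 0 to 22.2), Oxt (0.660, from 0.0538 to 86.5), Pmch (0.289, from 0.0439 to 209), Gal (0.222, from 0 to 4.38), Hcrt (0.215, from 0 to 61.2) and Agrp (0.070, from 0 to 0.306). The neighbours in this lower order overlapped as well, and in tRNA-Phe-3-1-/- replicate C Pmch passed every other member. No read was counted for Avp in tRNA-Phe-1-1-/- replicate A, for Hcrt in tRNA-Phe-1-1-/- replicate C, for Gal in WT replicate B, or for Agrp in WT replicate B and tRNA-Phe-1-1-/- replicate B. A count of 0 allows up to 3 reads, which is 0.0870 CPM (reads scaled by library size) in WT replicate B, and such limits cover counting error only.

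**Figure D2:**
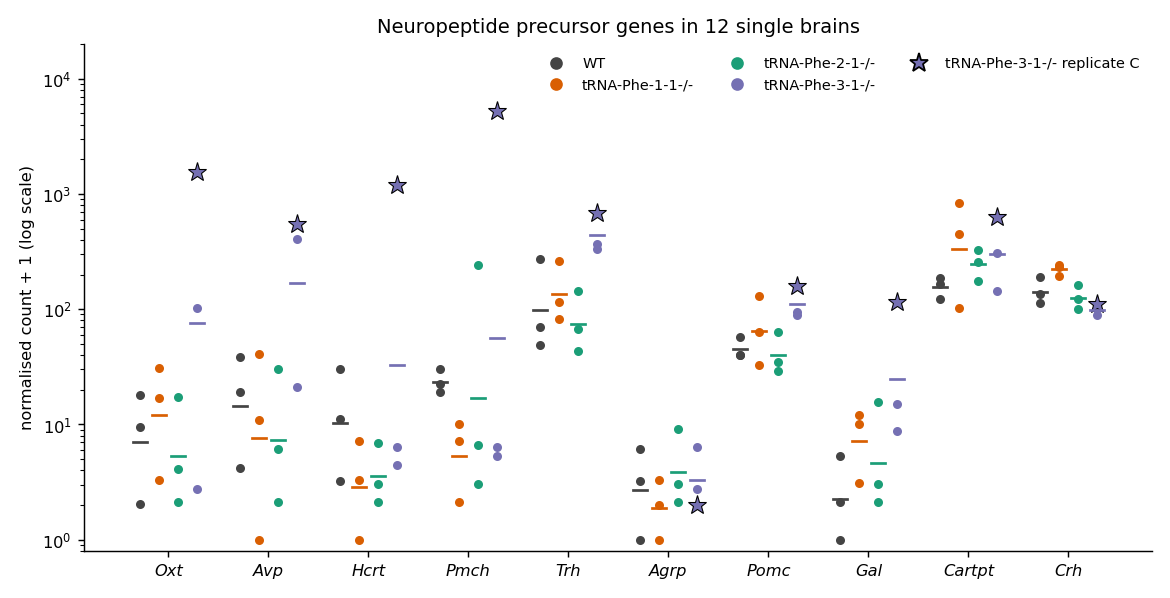
Normalised count of each of the 10 genes in every brain, on a log axis of count + 1, with 1 point a brain and a bar at the mean of log2(count + 1) of each genotype. tRNA-Phe-3-1-/- replicate C lies above the other 11 brains for 7 genes, whereas Crh varies least and is lowest in the tRNA-Phe-3-1-/- group.

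Oxt and Avp encode the precursors of oxytocin and vasopressin, the hormones of the magnocellular neurons. Oxt (ENSMUSG00000027301.7) lies on chromosome 2 from 130574519 to 130577054 in GRCm38.p6 and Avp (ENSMUSG00000037727.6) from 130580620 to 130582588, on opposite strands with 3565 bases between them. Both hormones have 9 residues, and the stretches of coding sequence for them are shown because the genes are near copies whose reads can be hard to separate. Capitals mark a phenylalanine codon, the codon read by the deleted tRNAs, which the vasopressin sequence has and the oxytocin sequence lacks.
Oxt hormone: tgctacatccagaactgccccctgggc
Avp hormone: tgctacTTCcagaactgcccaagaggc
The longest identical stretch of both transcripts, in the part that encodes their neurophysins, was 127 bases long, starting at base 158 of the 539-base Oxt transcript and base 310 of the 743-base Avp transcript.
Shared stretch: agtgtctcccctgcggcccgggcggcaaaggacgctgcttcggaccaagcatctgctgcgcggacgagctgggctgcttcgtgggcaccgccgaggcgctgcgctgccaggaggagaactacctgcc
Of the 490 windows of 50 bases in the Oxt transcript, 78 (15.9%) also occurred in Avp. How the counting tool divided reads of that stretch was not tested, so an unknown part of either count may belong to the other gene.

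Oxt was scarce in most brains and high in 2 of them. Its normalised counts were 8.55, 1.06 and 16.9 in WT, 2.29, 30.1 and 16 in tRNA-Phe-1-1-/-, and 3.08, 1.12 and 16.2 in tRNA-Phe-2-1-/-. In tRNA-Phe-3-1-/- they were 101, 1.75 and 1545. tRNA-Phe-3-1-/- therefore held both the 2 highest brains and 1 of the lowest, and its values overlapped those of WT. Avp had 18.0, 3.17 and 37.2 in WT, 0, 39.5 and 10.0 in tRNA-Phe-1-1-/-, and 5.13, 1.12 and 29.5 in tRNA-Phe-2-1-/-. In tRNA-Phe-3-1-/- it had 409, 20.1 and 547, so replicates A and C were again above the other 10 brains and replicate B fell inside the WT range. Sim1, a transcription factor of the neurons that make both hormones, was at 88.4 and 219 in those same replicates A and C and between 0 and 9.03 in the other 10 brains. Choroid plexus markers were also high in these replicates, with Ttr, the choroid plexus thyroxine carrier, at 15098 and 24451, but Ttr reached 49266 in tRNA-Phe-2-1-/- replicate C, where Oxt was 16.2. The part of tissue composition in these values was not tested.

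Genotypes were compared with limma on log2(normalised count + 1), with p-values adjusted over all 19228 genes tested and a threshold of 0.05. With all brains, the log2 fold change of tRNA-Phe-3-1-/- against WT was 3.42 ± 1.87 (SE) for Oxt (limma adjusted p = 0.499) and 3.54 ± 1.58 for Avp (limma adjusted p = 0.399). Without replicate C these were 1.25 ± 1.57 and 2.68 ± 1.74. The other knockouts gave 0.77 and -0.41 for Oxt and -0.92 and -0.98 for Avp, in the order tRNA-Phe-1-1-/- and tRNA-Phe-2-1-/-. No difference in either hormone gene passed the threshold in the limma fit.

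Across the 12 brains, Oxt and Avp rose and fell together. Pearson's r of log2(normalised count + 1) was 0.882 (permutation test, adjusted p = 0.00144 over 36 pairs) and Spearman's rho was 0.881 (permutation test, adjusted p = 0.0112). Deviations from the genotype means gave r = 0.876 (exact permutation within genotypes, p = 0.000772, the smallest that 1296 permutations allow, adjusted p = 0.0278). Leaving out the 2 brains farthest from the median of Oxt gave r = 0.752, and leaving out only tRNA-Phe-3-1-/- replicate C gave r = 0.859 (permutation test, adjusted p = 0.0245). With a pseudocount of 0.1, under which brains with 0 or 1 read weigh more, the adjusted p of the permutation test was 0.0617. Reads of the stretch that both transcripts share may enter this correlation, and their part in it was not tested. The promoters of the 2 genes are shown because the genes varied together. Each is the 250 bases before a RefSeq transcript start in GRCm38.p6, written 5′ to 3′ along the gene. For Oxt this start lies inside the gene span given above, not at its first base. Capitals mark TGACC on either strand (the short element bound by several nuclear hormone receptors).
Oxt promoter, chr2:130575919-130576168, plus strand: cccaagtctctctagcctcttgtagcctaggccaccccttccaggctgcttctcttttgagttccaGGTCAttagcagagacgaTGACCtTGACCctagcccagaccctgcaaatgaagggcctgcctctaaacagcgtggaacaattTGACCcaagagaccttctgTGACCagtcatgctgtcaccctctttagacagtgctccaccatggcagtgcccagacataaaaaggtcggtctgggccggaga
Avp promoter, chr2:130582589-130582838, minus strand: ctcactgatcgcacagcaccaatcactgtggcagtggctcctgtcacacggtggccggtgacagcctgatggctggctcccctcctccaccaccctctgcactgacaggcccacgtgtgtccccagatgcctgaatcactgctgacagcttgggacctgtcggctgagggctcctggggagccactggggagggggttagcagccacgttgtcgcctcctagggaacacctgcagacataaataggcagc
The letters occurred 5 times for Oxt and 0 times for Avp, and 35.2% of 32851 promoters of this length held them at least once. The match describes the letters in these windows only.

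Hcrt encodes the orexin precursor and Pmch the precursor of melanin-concentrating hormone, both made by neurons of the lateral hypothalamus. Hcrt (ENSMUSG00000045471.4) lies on chromosome 11 from 100761693 to 100762931 and Pmch (ENSMUSG00000035383.7) on chromosome 10 from 88091072 to 88092374. The coding stretch of the 19-residue hormone of Pmch is shown because it too holds a phenylalanine codon (capitals).
Pmch hormone: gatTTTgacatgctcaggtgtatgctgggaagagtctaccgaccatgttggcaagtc
Hcrt had 10.3, 29.6 and 2.26 normalised counts in WT, 2.29, 6.23 and 0 in tRNA-Phe-1-1-/-, and 2.05, 1.12 and 5.91 in tRNA-Phe-2-1-/-. In tRNA-Phe-3-1-/- it had 5.39, 3.49 and 1199.7. A single brain thus held 94.6% of all Hcrt counts, 40.5-fold above the next brain, and the other 2 brains of that genotype lay within the WT range. Pmch had 21.4, 29.6 and 18.1 in WT, 1.15, 6.23 and 9.02 in tRNA-Phe-1-1-/-, and 2.05, 5.58 and 239 in tRNA-Phe-2-1-/-. In tRNA-Phe-3-1-/- it had 5.39, 4.36 and 5208, so that replicate C held 93.8% of all Pmch counts, 21.8-fold above the next brain. Apart from the 2 high brains, both of them replicate C of their genotype, every knockout brain was below the 3 WT brains for Pmch.

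Averages over brains therefore said little about these genes. The log2 fold change of tRNA-Phe-3-1-/- against WT was 1.65 ± 1.79 for Hcrt and 1.26 ± 2.32 for Pmch, and both turned negative without replicate C (-0.96 ± 1.05 and -2.01 ± 1.47). For Pmch, tRNA-Phe-1-1-/- did not overlap WT and gave -2.13 ± 2.32. In this fit all 12 brains share 1 estimate of the spread, so replicate C of tRNA-Phe-3-1-/- enters that SE too. Hcrt and Pmch were correlated (r = 0.834, permutation test, adjusted p = 0.0462), but r was 0.340 without the 2 brains farthest from the median of Hcrt, so the relation rests on those brains.

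Trh and Crh encode the releasing hormones for thyrotropin and corticotropin. Trh (ENSMUSG00000005892.4) lies on chromosome 6 from 92242061 to 92244650 and Crh (ENSMUSG00000049796.4) on chromosome 3 from 19693401 to 19695396. The Trh precursor carries its 3-residue hormone in 5 copies, each encoded here without a phenylalanine codon. The first copy is shown because it is the shortest hormone of the set.
Trh hormone: cagcatccg
Trh counts were 68.4, 47.6 and 274 in WT, 260.1, 81.0 and 115 in tRNA-Phe-1-1-/-, 42.1, 65.9 and 143 in tRNA-Phe-2-1-/- and 329, 367 and 683 in tRNA-Phe-3-1-/-. All 3 brains of tRNA-Phe-3-1-/- were above the other 9 brains. The mean was 459.8 ± 195 (SD, n = 3), compared with 130.1 ± 125 in WT, and the log2 fold change was 2.16 ± 0.66 (limma adjusted p = 0.243). It was 1.84 ± 0.73 without replicate C, and the remaining 2 brains were still above every WT brain. Against the other knockouts, Trh in tRNA-Phe-1-1-/- was lower than in tRNA-Phe-3-1-/- by a log2 difference of -1.69 ± 0.66 (adjusted p = 0.192), and that in tRNA-Phe-2-1-/- by -2.55 ± 0.66 (adjusted p = 0.323). These differences did not pass the threshold once all genes were accounted for.

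Crh gave the only member difference that passed the test. Its counts were 111, 190.2 and 133 in WT, 191, 243 and 233 in tRNA-Phe-1-1-/-, 162, 121 and 98.9 in tRNA-Phe-2-1-/-, and 99.1, 87.3 and 109.6 in tRNA-Phe-3-1-/-. Every tRNA-Phe-1-1-/- brain was above every other brain and every tRNA-Phe-3-1-/- brain was below every WT brain. Means were 223 ± 27.5 and 98.7 ± 11.2 (SD, n = 3) in these knockouts, with 145 ± 40.8 in WT and 127 ± 32.1 in tRNA-Phe-2-1-/-. Crh was higher in tRNA-Phe-1-1-/- than in tRNA-Phe-3-1-/- by 1.16 ± 0.23 on the log2 scale (limma adjusted p = 0.0297). Against WT the changes were 0.65 ± 0.23 in tRNA-Phe-1-1-/- (limma adjusted p = 0.194) and -0.52 ± 0.23 in tRNA-Phe-3-1-/- (adjusted p = 0.386), and neither passed. tRNA-Phe-1-1-/- was above tRNA-Phe-2-1-/- by 0.82 ± 0.23 (limma adjusted p = 0.129).

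The Crh call was close to the threshold. With only the 2 knockouts in the fit, its adjusted p was 0.0754. It was 0.0610, 0.123 and 0.0927 without tRNA-Phe-1-1-/- replicates A, B and C, 0.0713, 0.0566 and 0.0685 without tRNA-Phe-3-1-/- replicates A, B and C, and 0.0516 without WT replicate C, while the log2 difference stayed between 1.08 and 1.27. Without tRNA-Phe-1-1-/- replicate A and tRNA-Phe-3-1-/- replicate B, the brains with high olfactory bulb markers, the adjusted p was 0.0969. It was 0.0465 in limma without the brains apart for thalamic markers. Cerebral cortex markers scored 0.41, -0.11 and -0.24 in tRNA-Phe-1-1-/- and -0.41, 0.12 and -1.25 in tRNA-Phe-3-1-/-. Their part in the Crh difference was not tested. edgeR on recovered reads gave an adjusted p of 0.0362 and DESeq2 0.000338.

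Pomc encodes the precursor of the melanocortins and of beta-endorphin, and Agrp the peptide that opposes melanocortins at their receptors. Pomc (ENSMUSG00000020660.6) lies on chromosome 12 from 3954945 to 3960643 and Agrp (ENSMUSG00000005705.10) on chromosome 8 from 105566695 to 105579845. The coding stretch of alpha-MSH, the melanocortin of 13 residues, is shown with its phenylalanine codon in capitals.
Pomc alpha-MSH: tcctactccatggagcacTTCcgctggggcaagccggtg
Pomc counts were 39.3, 39.1 and 56.4 in WT, 32.1, 62.3 and 128 in tRNA-Phe-1-1-/-, 33.9, 27.9 and 62.8 in tRNA-Phe-2-1-/-, and 88.4, 94.3 and 158 in tRNA-Phe-3-1-/-. The last group was above all WT and tRNA-Phe-2-1-/- brains but overlapped tRNA-Phe-1-1-/-. Its mean was 114 ± 38.6 against 45.0 ± 9.94 in WT (SD, n = 3), with a log2 fold change of 1.29 ± 0.46 (limma adjusted p = 0.305) that was 1.03 ± 0.50 without replicate C. The pituitary makes Pomc too, and its marker Gh, growth hormone, was at 0.855, 1.06 and 402 in WT and at 57.1, 313 and 116 in tRNA-Phe-3-1-/-. Gh was at 22.9, 672 and 296 in tRNA-Phe-1-1-/- and at 12.3, 2.23 and 2.95 in tRNA-Phe-2-1-/-. The part of pituitary tissue in the Pomc values was not tested. Agrp was too low to be tested. Its counts were 5.13, 0 and 2.26 in WT, 2.29, 0 and 1.00 in tRNA-Phe-1-1-/-, 2.05, 1.12 and 8.12 in tRNA-Phe-2-1-/- and 5.39, 1.75 and 0.987 in tRNA-Phe-3-1-/-, with a mean of 2.51 over all brains. A difference of Agrp between genotypes was not detectable at this depth.

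Gal encodes galanin, a peptide of several hypothalamic nuclei, and Cartpt the CART precursor, a feeding-related peptide. Gal (ENSMUSG00000024907.7) lies on chromosome 19 from 3409915 to 3414544 and Cartpt (ENSMUSG00000021647.7) on chromosome 13 from 99898483 to 99910179. Gal counts were 4.28, 0 and 1.13 in WT, 9.17, 2.08 and 11 in tRNA-Phe-1-1-/-, 2.05, 1.12 and 14.8 in tRNA-Phe-2-1-/-, and 14.0, 7.85 and 115 in tRNA-Phe-3-1-/-. All tRNA-Phe-3-1-/- brains exceeded the WT brains, with a log2 fold change of 3.47 ± 1.08 (limma adjusted p = 0.249) and 2.36 ± 1.02 without replicate C. Those WT values rest on a handful of reads. Cartpt counts were 184, 123 and 166 in WT, 101, 446 and 829.7 in tRNA-Phe-1-1-/-, 253, 327 and 175 in tRNA-Phe-2-1-/-, and 307, 143 and 632 in tRNA-Phe-3-1-/-. Every knockout overlapped WT for Cartpt, and its log2 fold changes were 1.10 ± 0.68, 0.65 and 0.96 ± 0.68 in the order of the genotypes. WT was the narrowest group, with a highest brain 1.5-fold above the lowest.

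**Figure D3:**
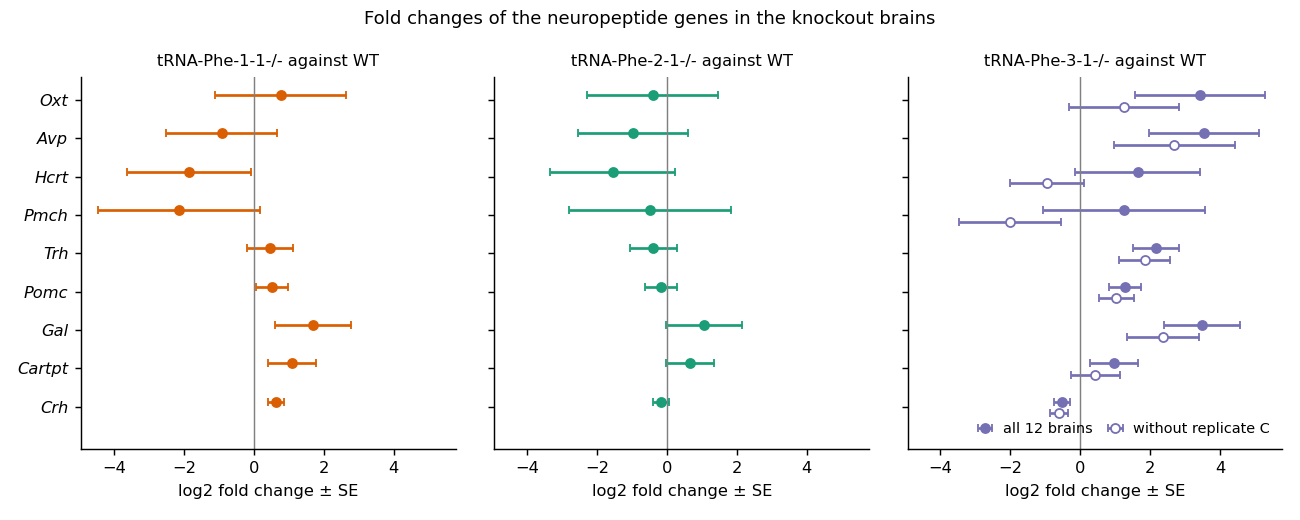
Log2 fold change ± SE of 9 genes in each knockout against WT (limma, 12 brains), with open circles for tRNA-Phe-3-1-/- without its replicate C. In tRNA-Phe-3-1-/- 8 of the 9 values are above 0 with all brains, and Hcrt and Pmch change sign when replicate C is left out (-0.96 and -2.01).

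Counted over the members, 9 of 10 passed the filter (mean of at least 10 normalised counts), and Hcrt and Gal did so only through tRNA-Phe-3-1-/- replicate C, with means of 6.24 and 6.13 over the other 11 brains. Against WT, none of the 9 passed an adjusted p of 0.05 in limma. The share of all genes called was 1.05% for tRNA-Phe-1-1-/-, 0% for tRNA-Phe-2-1-/- and 0% for tRNA-Phe-3-1-/-. edgeR also called 0 members in these comparisons, and DESeq2 called 0, 0 and 2 (Oxt with adjusted p = 0.0311 and Gal with 0.0328). At an unadjusted p under 0.05, limma gave 1 member for tRNA-Phe-1-1-/- (Crh), where 15.9% of all genes did so. It gave 0 for tRNA-Phe-2-1-/- (5.57% of all genes) and 5 for tRNA-Phe-3-1-/- (Avp, Trh, Pomc, Gal and Crh, against 12.3% of all genes). Without tRNA-Phe-3-1-/- replicate C, limma gave 3 members with an unadjusted p under 0.05 for that genotype against WT (Trh, Gal and Crh, against 8.54% of all genes), and edgeR and DESeq2 called 0. Of these 3, Gal would not have passed the filter over the other 11 brains. Groups did not overlap for 2 members in tRNA-Phe-1-1-/- (Pmch lower and Crh higher, 25.2% of all genes), for 0 in tRNA-Phe-2-1-/- (11.4%), and for 4 in tRNA-Phe-3-1-/- (Trh, Pomc and Gal higher, Crh lower, 16.4%). Without replicate C, 5 members of tRNA-Phe-3-1-/- did not overlap WT (Pmch in addition, lower), where 25.8% of all genes did not. The 3 comparisons share the WT brains. Median log2 fold changes of the 9 members were 0.51, -0.39 and 1.65, while those of all genes were -0.00059, -0.0016 and 0.0018. The last of these member medians was the value of Hcrt and was 1.03 without replicate C, with 6 instead of 8 of the 9 values above 0.

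Between knockouts, the limma counts of members were 0 for tRNA-Phe-1-1-/- compared with tRNA-Phe-2-1-/-, 1 for tRNA-Phe-1-1-/- compared with tRNA-Phe-3-1-/- and 0 for tRNA-Phe-2-1-/- compared with tRNA-Phe-3-1-/-, where 0.53%, 2.11% and 0% of all genes were called. edgeR gave the same counts of 0, 1 and 0, and DESeq2 gave 1 (Crh), 2 (Oxt and Crh) and 1 (Oxt). Unadjusted p-values under 0.05 were found for 1, 3 and 4 members, against 13.7%, 19.5% and 9.93% of all genes. Non-overlapping groups were seen for 1 member (Crh), 2 members (Trh and Crh) and 2 members (Trh and Pomc), against 20.8%, 23.5% and 12.7% of all genes. For any difference among the 4 genotypes, the limma F-test called 0 members and 0.634% of all genes, with Crh closest at an adjusted p of 0.0994. At an unadjusted p under 0.05, 5 members (Avp, Trh, Pomc, Gal and Crh) and 17.6% of all genes passed that test, edgeR called 0 members, and DESeq2 called 4 (Oxt, Avp, Gal and Crh). Gal, tested only because of tRNA-Phe-3-1-/- replicate C, is in both of these counts. It is also among the 4 members with an unadjusted p under 0.05 for tRNA-Phe-2-1-/- compared with tRNA-Phe-3-1-/-. Without tRNA-Phe-3-1-/- replicate C, limma and edgeR called 0 members in every comparison, and DESeq2 called Crh alone (tRNA-Phe-1-1-/- compared with either other knockout, and any difference). Unadjusted p-values under 0.05 then fell to 1 member for tRNA-Phe-1-1-/- compared with tRNA-Phe-3-1-/- (13.9% of all genes), 2 for tRNA-Phe-2-1-/- compared with tRNA-Phe-3-1-/- (6.73%) and 1 for any difference (15.4%). The members that did not overlap were again Trh and Crh in the former comparison and Trh and Pomc in the latter, where 31.7% and 20.3% of all genes did not overlap.

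The spread between brains of 1 genotype was wide for most of these genes. The SD of log2(normalised count + 1) within genotypes was 3.35 for Pmch, 2.68 for Oxt, 2.54 for Hcrt and 2.27 for Avp, at percentiles 99.9, 99.7, 99.7 and 99.5 of all genes tested, whose median SD was 0.213. Gal (1.48), Cartpt (0.98), Trh (0.95) and Pomc (0.64) followed at percentiles 98.4, 96.4, 96.1 and 90.8. Hcrt and Gal passed the filter only through tRNA-Phe-3-1-/- replicate C, so a wide spread of both was built in. Genes tested at a mean log2 level near 2.75, as both had, showed a median SD of 2. The 5th to 95th percentile range there was 1.27 to 2.99, and Hcrt and Gal lay within it. Crh was the exception among the members, with an SD of 0.29 at percentile 63.5. The SD expected from read counting alone was 0.308 for Pmch, 0.356 for Oxt, 0.474 for Hcrt, 0.292 for Avp and 0.486 for Gal. Without tRNA-Phe-3-1-/- replicate C the SD was 1.91 for Pmch, 2.04 for Oxt, 1.26 for Hcrt and 2.29 for Avp, so that of Avp was as large without that brain. WT brains alone held 1 to 15 reads of Oxt, 3 to 33 of Avp and 2 to 28 of Hcrt, and with so few reads a ratio is rough. From lowest to highest WT brain, Trh differed 5.77-fold, compared with 1.71-fold for Crh and 1.44-fold for Pomc.

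**Figure D4:**
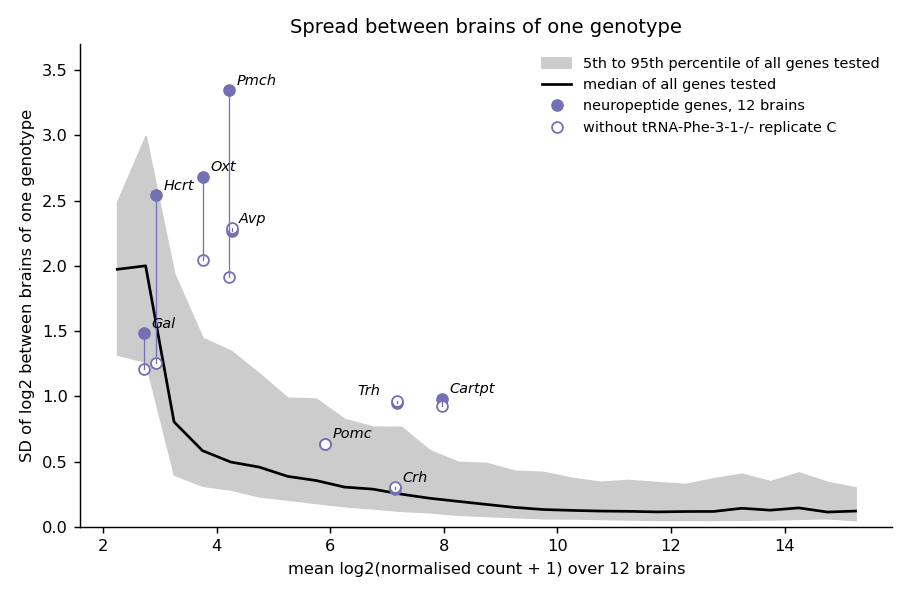
SD of log2(normalised count + 1) between brains of 1 genotype (y axis) against mean log2 level over 12 brains (x axis), with the median and the 5th to 95th percentile of all genes tested at each level as line and band. Pmch (3.35), Oxt (2.68) and Avp (2.27) are above the band, also without tRNA-Phe-3-1-/- replicate C (open circles), while Crh (0.29) is near the median of genes of its level.

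Members tended to be high in the same brains, and 1 brain carried most of that tendency. Of the 36 pairs, 29 had a positive r, with a median of 0.538, and 7 passed the permutation test after adjustment. Beside Oxt with Avp and Hcrt with Pmch these were Avp with Pomc (0.754), Oxt with Pomc (0.735), Oxt with Gal (0.756), Trh with Gal (0.740) and Pomc with Gal (0.723), each with an adjusted p of 0.0401 in the permutation test. Hcrt and Gal passed the filter only through tRNA-Phe-3-1-/- replicate C, so pairs with either gene were tested only because of that brain. Within genotypes, Oxt with Avp was the single pair that passed. Without tRNA-Phe-3-1-/- replicate C, 21 pairs were positive, the median r was 0.163, and Oxt with Avp was again the single pair called in the permutation test.

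The hypothalamic regulators, transcription factors such as Sim1, Otp and Nkx2-1 that share no gene with the members, tracked the hormone genes of magnocellular neurons. Their score correlated with Oxt at r = 0.918 (rho = 0.825, permutation test, adjusted p = 0.00131 over 9 members) and with Avp at r = 0.811 (rho = 0.790, adjusted p = 0.00131). Within genotypes the values were 0.954 (exact permutation, adjusted p = 0.0243) and 0.758 (exact permutation, adjusted p = 0.0394). Leaving out tRNA-Phe-1-1-/- replicate A and tRNA-Phe-3-1-/- replicate C, the brains farthest from the median score, gave 0.777 and 0.683, and leaving out only the latter gave 0.776 and 0.771 (permutation test, adjusted p = 0.0267 for both). Pmch (r = 0.866), Gal (0.730) and Pomc (0.648) also passed over all 12 brains (permutation test, adjusted p = 0.00789, 0.0244 and 0.0244). Their r without those 2 brains was 0.442, 0.559 and 0.289. Gal and Hcrt passed the filter only through tRNA-Phe-3-1-/- replicate C, so both were in this test because of that brain. Hcrt (0.734, adjusted p = 0.0608), Trh (0.569, adjusted p = 0.0587), Cartpt (0.523, adjusted p = 0.0859) and Crh (-0.408, adjusted p = 0.19) did not pass the permutation test, and Crh had the only negative value. That of Hcrt was -0.157 without the 2 brains. How far the position of the tissue piece sets these levels was not tested.

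**Figure D5:**
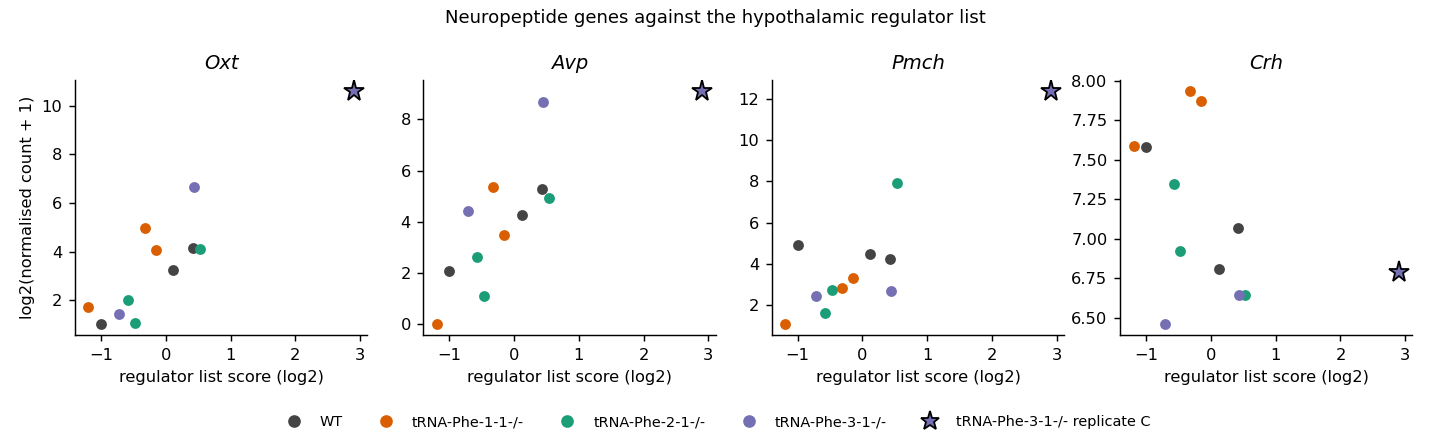
Log2(normalised count + 1) of members (y axes) against the score of the 14 hypothalamic regulators (x axes) in 12 brains, with 1 point a brain, coloured by genotype. Oxt (r = 0.918) and Avp (r = 0.811) rise with the score, and tRNA-Phe-3-1-/- replicate C is the point at 2.91.

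Of 15 receptor genes for these peptides 11 were tested, and Mc4r, the melanocortin receptor of feeding circuits, was the 1 called gene: its counts were 60.7, 26.4 and 37.2 in WT and 125, 104 and 163 in tRNA-Phe-1-1-/-, a log2 fold change of 1.69 ± 0.34 (limma adjusted p = 0.0470). The highest of these, tRNA-Phe-1-1-/- replicate C, stood apart for the receptor list as a whole (score 0.57 against a median of -0.096). Without it the Mc4r change was 1.52 (limma adjusted p = 0.171), and the call held in 3 of 12 fits with a brain left out. Of the 15 genes for peptide processing and secretory granules, all tested, Vgf, a granule protein that is itself cut into peptides, was the 1 called. It was at 3500, 3892 and 3836 in tRNA-Phe-1-1-/- and at 2483, 2137 and 1951 in tRNA-Phe-3-1-/-, a difference of 0.78 ± 0.18 (limma adjusted p = 0.0485). That call held in 2 of 12 fits with a brain left out, and edgeR gave an adjusted p of 0.0514. Vgf thus moved in the direction of Crh in the same comparison. Among 7 tested hormone receptors of hypothalamic neurons, Nr3c1, the glucocorticoid receptor through which Crh is restrained, was the 1 called gene and was lower in tRNA-Phe-1-1-/- than in WT by -0.43 ± 0.08 (limma adjusted p = 0.0318). Its counts were 6922, 7485 and 7870 in WT, against 5611, 5327 and 5534 in tRNA-Phe-1-1-/-, and the call held in 7 of 12 fits with a brain left out. The tRNA-Phe-3-1-/- brains were as low (5053, 5510 and 5616) without a call. A relation of Nr3c1 to Crh was not tested.

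Other neuropeptide genes gave no call in limma in any comparison. Of 18 listed, 17 matched and 10 were tested. Pdyn, the dynorphin precursor, was lowest in p and was at 525, 643 and 465 in WT and 583, 1599 and 2192 in tRNA-Phe-1-1-/-, and Adcyap1, the PACAP precursor, was at 576, 735 and 597 in WT and 709, 346 and 312 in tRNA-Phe-1-1-/-. Kiss1 was not analysed here. The 5 genes for binding and degradation of peptides also gave 0 calls. Trhde, the enzyme that degrades thyrotropin-releasing hormone, was at 2282, 2236 and 2497 in WT and at 1510, 1518 and 1229 in tRNA-Phe-1-1-/-, and in tRNA-Phe-3-1-/-, where Trh was highest, at 1503, 1975 and 978. Prcp, which shortens alpha-MSH, was at 346, 305 and 433 in WT and at 235, 215 and 214 in tRNA-Phe-1-1-/-. In the unadjusted limma test of the 3 knockouts against WT, p was under 0.05 for 1, 1 and 2 of the 10 other neuropeptides. For the 5 binding and degradation genes these counts were 2, 0 and 1. The shares of all genes were 15.9%, 5.57% and 12.3%. Counts were 4, 2 and 8 of the 15 peptide processing genes and 1, 1 and 5 of the 6 cerebral cortex genes. They were 2, 2 and 3 of the 11 receptors of the members, and 1, 1 and 3 of the 7 hormone receptors. Of the regional lists, that of cerebral cortex held 1 called gene, the layer marker Rorb. Its counts were 3714, 3799 and 3656 in WT and 2315, 2487 and 1890 in tRNA-Phe-1-1-/- (-0.75 ± 0.09, limma adjusted p = 0.0114). That call held in 11 of 12 fits with a brain left out. Rorb was at 3953, 3718 and 3925 in tRNA-Phe-2-1-/-. In tRNA-Phe-3-1-/- it was at 2414, 2677 and 2458, below every WT brain but without a call against WT. The hypothalamic regulators and the marker lists of pituitary, choroid plexus, striatum, hippocampus, cerebellum, thalamus, olfactory bulb, midbrain dopamine neurons, hindbrain, whole brain and liver held 0 genes called by limma, and 0 to 5 genes of each list had an unadjusted p under 0.05 in a comparison.

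The genes whose pattern over the 12 brains was most like that of each member were taken from 13155 protein-coding genes by Pearson's r, as a description that carries no test. They were Arhgap36 (0.963), Tmie (0.943) and Gprasp2 (0.934) for Oxt, and Spryd7 (0.938), Nsmce1 (0.922) and Sqle (0.909) for Avp. For these 2 genes the lists shared no gene. For Hcrt they were Scd2, Rtl8a and Bpnt2 (0.909 to 0.925), and for Pmch Mtus1, Gna12 and Cfap141 (0.939 to 0.953). Trh was nearest to S100a8 (0.928), Rassf8 and Prokr2, Pomc to Tubb2b (0.920), H3f3a and Eef1a1, and Gal to Adpgk (0.939), Pomgnt2 and Abca8a. Cartpt was nearest to Nts (0.955), the neurotensin precursor, followed by Tug1 and Spag7, and Crh to Gga2 (0.968), Mbnl2 and Znrf1.

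The share of phenylalanine codons, which the deleted tRNAs read, differed between the coding sequences of the members. It ran from 0.769% in Hcrt (1 of 130 codons) and 0.862% in Cartpt (1 of 116) to 4.26% in Pomc (10 of 235) and 5.45% in Pmch (9 of 165). Crh had 2.67% (5 of 187) and Oxt 2.40% (3 of 125), compared with 4.17% in Avp (7 of 168). Over 14927 tested coding genes the median was 3.60%, with a 5th to 95th percentile range of 1.42% to 6.59%, and the median of the 10 members was 2.7%. Hcrt and Cartpt were below that range and the other members within it. RNA levels were measured here, and peptides and their translation were not.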

How the data were processed

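RNA from brain and liver of 4 genotypes was sequenced (TruSeq, paired-end), with 3 samples for each tissue and genotype and 24 in all. Per the labels and methods, the authors trimmed reads (Trim Galore, cutadapt), aligned them with STAR, estimated counts with Salmon with strand, sequence and GC bias taken into account (GRCm38.p6), and divided them by 1 DESeq2 size factor per sample. The deposited signal values are these normalised counts, and all of them gave whole reads when the size factor was undone (tolerance 0.001). Bias correction and shared reads can move low counts. Symbols were matched by Ensembl ID (93.2%), and coordinates, coding sequences and promoters came from RefSeq and the annotation tables.

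Genes of the brain table whose average reached 10 normalised counts were tested on the scale log2(normalised count + 1). The tool was limma 3.58.1 under R 4.3.3 (12 brains, genotype only, variance trend, two-sided, Benjamini-Hochberg over all 19228 genes, threshold 0.05), so fold changes of low genes are understated. edgeR 4.0.16 (quasi-likelihood) and DESeq2 1.42.0 on recovered reads were alternatives, beside pseudocounts of 0.1 and 5, no filter, a mean of at least 50, quantile and trimmed mean (30%) rescaling, no variance trend, a replicate block, only the genotypes compared, and each brain left out. Correlations used 100000 permutations, or all 1296 permutations within genotypes, two-sided (SciPy 1.17.1). r was recomputed without the 2 brains farthest from the median.

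Members and gene lists were chosen with earlier results of these data known. Named genes were all 10 members, every called gene of each other list or else its 2 genes with the lowest F-test p, and the 3 genes most correlated with each member. Of genes named by that rule in lists that gave no call, those of regional lists are mostly given as list scores. Replicates were separate mice according to the methods. No 2 brains of a genotype had counts that agreed within sampling noise (chi-square per degree of freedom from 13.9 to 76.5). Livers served only to look for reads of the members.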

Additional observations from a re-analysis of the deposited data

Results flagged for a closer look

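Pomc, a pituitary and hypothalamic gene, was counted in the livers, which entered no comparison above. All 12 livers held reads of it, from 1 to 8, and 5 livers were above the 3 reads that a count of 0 allows. The normalised counts were between 0.977 and 7.37, with a median of 3.14, against 27.9 to 158 in the brains. Of the other members, Oxt had 2 reads in 1 liver and Cartpt 1 read in 1 liver, and the remaining 7, Crh, Trh, Avp, Hcrt, Pmch, Gal and Agrp, had 0 reads in every liver.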

How the results depend on the processing

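The 36 log2 fold changes of members that were recomputed (9 genes in each knockout against WT, and Crh, Trh and Pomc between knockouts) kept their direction and their side of the threshold in 867 of 897 alternatives, with 9 weaker, 3 stronger and 18 reversed. Many alternatives could not move a fold change, such as another variance model or a left-out brain of a genotype not compared. All but 1 of the 36 were not called at the outset, and a missing adjusted p was counted as not passing. The 867 is therefore no measure of stability. Leaving out 1 brain at a time turned the direction of Oxt and Trh in tRNA-Phe-1-1-/- against WT (ranges -0.12 to 1.71 and -0.029 to 1.22) and of Avp there (-2.12 to 0.55, and 0.55 without both brains apart for olfactory bulb). In tRNA-Phe-2-1-/- it turned Oxt (-1.30 to 0.26), Pmch (-2.39 to 0.75), Trh (-0.89 to 0.36), Pomc (-0.51 to 0.058) and Crh (-0.37 to 0.034). For Pmch there, edgeR gave 1.91 and DESeq2 1.84. In tRNA-Phe-3-1-/- it turned Hcrt (-0.96 to 3.07) and Pmch (-2.01 to 2.95), which were -0.90 and -2.04 without the brains apart for thalamus. The cause was not tested beyond the brains left out.

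DESeq2 called 2 members for tRNA-Phe-3-1-/- against WT, 1 for tRNA-Phe-1-1-/- compared with tRNA-Phe-2-1-/-, 2 for tRNA-Phe-1-1-/- compared with tRNA-Phe-3-1-/-, 1 for tRNA-Phe-2-1-/- compared with tRNA-Phe-3-1-/- and 4 for any difference, against 0, 0, 1, 0 and 0 in limma. Its p for Hcrt and Pmch in tRNA-Phe-3-1-/- against WT was not given by the tool. The 1 call of limma (Crh) was 0 with only the genotypes compared and between 0 and 1 with a brain left out. It was lost in 7 of the 12 such fits. Without tRNA-Phe-3-1-/- replicate C, an alternative for the count tools that was chosen after seeing the data, edgeR called 0 members in every comparison and DESeq2 called Crh alone, in 3 comparisons (1 member each). The count of all genes called was less stable: 202 for tRNA-Phe-1-1-/- against WT (5 to 248 with a brain left out, 187 by edgeR, 874 by DESeq2), 406 for tRNA-Phe-1-1-/- compared with tRNA-Phe-3-1-/- (5 with only these genotypes, 1317 by DESeq2), and 0 for tRNA-Phe-3-1-/- against WT (75 without its replicate B, 373 by DESeq2).

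Of the correlations, 7 pairs of members passed, against 0 with a pseudocount of 0.1, 1 with quantile normalisation and 1 to 11 with a brain left out. Within genotypes 1 pair passed. With 11 brains a pair that reaches the smallest p alone has an adjusted p of 0.0833 and cannot pass, so the 0 pairs found in each of those fits say nothing about the stability of Oxt with Avp. With the regulators 5 members passed (2 to 6 with a brain left out, 2 without tRNA-Phe-3-1-/- replicate C), and within genotypes 5 passed, against 0 with a pseudocount of 5, 0 with quantile normalisation and 0 to 4 with a brain left out.

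The labels give the replicate letters only, and whether a letter pairs brains across genotypes was looked at without a p-value. Correlations of deviations between brains of the same letter ran from -0.164 to 0.492, and 7 of 12 brains correlated best with their own letter, which was 1 of 3 letters. With the letter as a replicate block, Crh kept its call (adjusted p = 0.0476) and no other member call changed in limma, while pairs called fell to 2, pairs within genotypes to 0 and members with the regulators within genotypes to 1. The block ended the within-genotype calls of Oxt with Avp (adjusted p = 0.396) and of Avp with the regulators (adjusted p = 0.246, exact permutation), and left that of Oxt with the regulators (adjusted p = 0.0139).

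The median SD of the 9 members within genotypes, 1.48, was recomputed with alternatives chosen after seeing the data and ran from 1.01 (replicate block) to 2.06 (pseudocount of 0.1), and tRNA-Phe-3-1-/- replicate C was highest for 7 members under each of 3 rescalings. With 3 brains per genotype and counts under 10 for many members, small differences were not detectable.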
